A study of Mus musculus with 6 samples.

Results

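The 10 genes described here encode laminin chains (Lama2, Lama4, Lama5, Lamb1, Lamb2 and Lamc1), both nidogens (Nid1 and Nid2), perlecan (Hspg2) and hemicentin 2 (Hmcn2), proteins of the basement membrane. They were found by symbol in the deposited gene table, where all 10 were present among 45777 genes, and all 10 were among the 17820 genes with enough reads to be tested. The set was drawn up as a protein family with the results of the comparison between labels already known. Differences of these 10 genes between labels are therefore given as a description, and no test of theirs is offered as support. Positions are those of RefSeq genes in GRCm38.p6, the assembly of mm10.

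RNA was sequenced from epididymal white adipose tissue, the fat pad beside the epididymis, of C57BL/6 mice after 24 h of fasting. The 3 libraries labelled KO came from mice with floxed alleles of Pak4, a kinase regulated by small GTPases, and the Adipoq-Cre transgene, which drives Cre recombinase from the adiponectin promoter in adipocytes. The 3 libraries labelled WT came from mice with the same floxed alleles, with no Cre named. All 6 thus share the floxed background, and cells of the pad other than adipocytes are not the target of this Cre. The labels call the cell type adipocytes, while the protocol describes excised whole tissue. The labels do not say whether a library is 1 mouse or a pool, so the spread between libraries may be partly technical.

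Total counts ran from 65230001 to 70830615 in the libraries labelled KO and from 62854465 to 72005658 in those labelled WT. Pak4 itself (chromosome 7, 28558819 to 28598184) had 815, 744 and 675 counts in the libraries labelled KO, against 339, 337 and 358 in those labelled WT. These counts cover the whole gene, so the floxed part cannot be looked at on its own. That order goes against the labels, and every direction below is between libraries by label, not between genotypes. The adipocyte markers Adipoq and Plin1 were abundant in both groups, at 5372 ± 909 and 1150 ± 257 CPM in the libraries labelled KO, against 4507 ± 568 and 1270 ± 37.6 CPM in those labelled WT (SD, n = 3 each). CPM are counts scaled to a common library total, here with TMM factors. On the first principal component of all genes tested (44.1% of the variance) the library labelled KO 1 lay at -1.85, between KO 2 (40.9) and KO 3 (53.5) on one side and WT 1, WT 2 and WT 3 (-12.3, -53.5 and -26.7) on the other. Where leaving out KO 1 altered the edgeR call of a basement membrane gene named below, the value without it is also given.

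Basement membranes are thin sheets of matrix that lie against cells. In fat they wrap each adipocyte and line the capillaries between them. Laminins are built from an alpha, a beta and a gamma chain that join in a long coiled coil. The trimers link to each other at their short arms and bind integrins and dystroglycan on the cell surface through the end of the alpha chain. Nidogens bind the laminin gamma chain and bridge it to the collagen IV network. Perlecan, a proteoglycan with heparan sulphate chains, binds both networks and holds growth factors. Hemicentins are very large proteins of immunoglobulin-like repeats that tether tissues across neighbouring basement membranes.

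Perlecan and nidogen 1 showed the largest differences of the set and hemicentin 2 the most even one, all lower in the libraries labelled KO. Among laminin chains, Lama4, Lama5, Lamb2 and Lamc1 were lower, by smaller amounts, while Lama2 and Lamb1 overlapped between labels, as did Nid2. The log2 fold change was below 0 in 8 of the 10, as in 47.9% of all genes tested. In 7 of the 10 genes every library labelled KO lay below every library labelled WT on the scale of TMM-scaled CPM, and in 0 of 10 the reverse. Over all genes tested, 12.5% had every library labelled KO below every library labelled WT and 13.7% the reverse. None of the 10 (0 of 10) passed edgeR's quasi-likelihood test at an adjusted p of 0.05, a threshold that 0.0168% of all genes tested passed. At an unadjusted p under 0.05 in that test 7 of the 10 were lower and 0 higher, against 9.71% lower and 9.66% higher among all genes. DESeq2 called 4 of the 10 lower (Hmcn2, Hspg2, Nid1 and Lamb2), where it called 3.86% of all genes lower and 2.61% higher, and limma voom called 0. Without KO 1, edgeR called 3 of the 10 lower (Hspg2, Hmcn2 and Lamb2), where it called 3.49% of all genes lower and 2.08% higher. Because the genes were picked from this comparison, nothing is read from these counts. In bulk tissue, fewer cells of a type and less RNA per cell cannot be told apart.

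**Figure D1:**
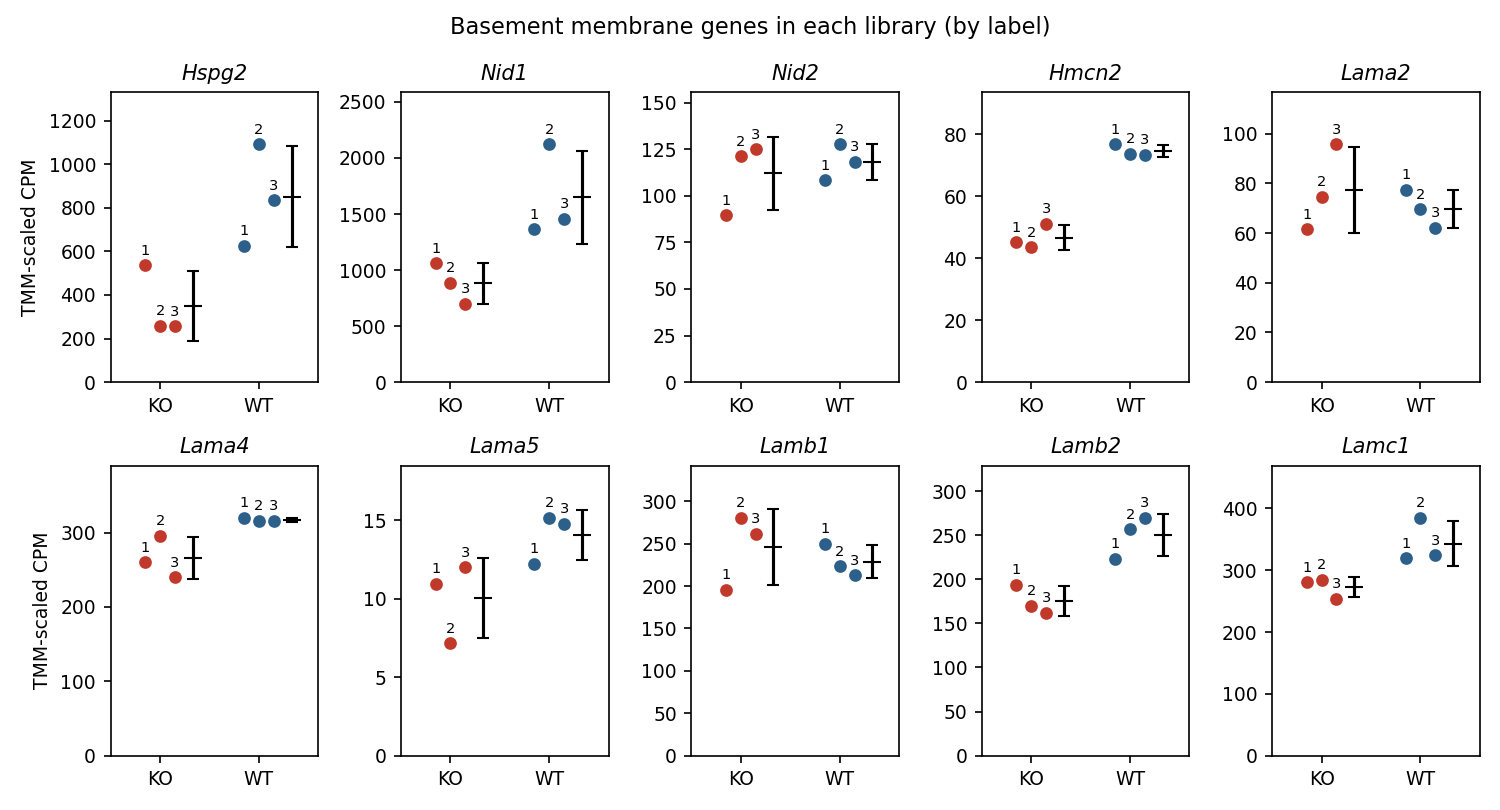
TMM-scaled CPM (y axis, from 0) of the 10 genes in each library, with the libraries labelled KO in red and those labelled WT in blue. Points carry the replicate number, and bars give the mean ± SD of 3 libraries. Hspg2, Nid1, Hmcn2, Lama4, Lama5, Lamb2 and Lamc1 show no overlap, with the red points below the blue ones, and Nid2, Lama2 and Lamb1 overlap.

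Perlecan is encoded by Hspg2 (gene ID 15530, chromosome 4, 137468751 to 137570630). It had 535, 258 and 258 CPM in the libraries labelled KO 1, 2 and 3, against 626, 1091 and 834 CPM in WT 1, 2 and 3. KO 2 and KO 3 stood far below the rest, while KO 1 lay close under WT 1, so the groups did not overlap but nearly met. The means were 350 ± 160 CPM in the libraries labelled KO and 851 ± 233 CPM in those labelled WT (SD, n = 3 each), a log2 fold change of KO over WT of -1.28 ± 0.34 (SE). Without KO 1 the log2 fold change was -1.72.

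Nidogen 1 is encoded by Nid1 (gene ID 18073, chromosome 13, 13437602 to 13512275). Its values were 1062, 888 and 699 CPM in the libraries labelled KO, against 1364, 2122 and 1458 CPM in those labelled WT. WT 2 was the highest library by far, and all 3 libraries labelled KO lay below all 3 labelled WT. This gave a log2 fold change of -0.90 ± 0.22 (SE), and of -0.67 without WT 2. Nidogen 2, the second member of the family, is encoded by Nid2 (gene ID 18074, chromosome 14, 19751257 to 19811787). Nid2 had 89.7, 121 and 125 CPM in the libraries labelled KO, against 108, 128 and 118 CPM in those labelled WT. Its lowest library was KO 1 and the others were intermixed, with a log2 fold change of -0.08 ± 0.14 (SE) that turned to 0.050 with scaling by library size alone and to 0.060 without KO 1.

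Per length, nidogen 1 was the most abundant transcript of the set. On the scale of the deposited TPM (a length-corrected unit with the same total in each library) Nid1 had 331, 290 and 216 TPM in the libraries labelled KO, against 413, 618 and 459 TPM in those labelled WT. The ratio of Nid1 to Nid2 TPM was 9.57, 5.92 and 4.52 in the libraries labelled KO, against 10.2, 13.4 and 9.96 in those labelled WT. Nidogen 2 thus made up 9.46%, 14.5% and 18.1% of nidogen TPM in the libraries labelled KO, against 8.93%, 6.93% and 9.12% in those labelled WT. KO 1 was close to the libraries labelled WT here too, and KO 3 was farthest from them. The ratio of Nid1 to Lamc1, the gamma chain that nidogens bind, averaged 4.06 ± 0.66 in the libraries labelled KO and 6.00 ± 0.84 in those labelled WT (SD, n = 3 each), so nidogen 1 was lower relative to the gamma chain and not only relative to the library.

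Hemicentin 2 is encoded by Hmcn2 (gene ID 665700, chromosome 2, 31314255 to 31460738). It had 45.2, 43.6 and 51.1 CPM in the libraries labelled KO, against 76.7, 73.7 and 73.4 CPM in those labelled WT. The libraries within each label were close together and the labels far apart, with no special place for KO 1. Its log2 fold change was -0.68 ± 0.09 (SE) and lay between -0.75 and -0.56 under all 14 other settings. Without KO 1, where edgeR called the gene, it was -0.66. Hmcn1, which encodes the other hemicentin, had 4.72 ± 1.31 CPM in the libraries labelled KO and 4.94 ± 0.96 CPM in those labelled WT (SD, n = 3 each) and overlapped between labels.

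Lama4 encodes the main laminin alpha chain of fat cells and of capillary endothelium (gene ID 16775, chromosome 10, 38965515 to 39110188). Its values were 260, 296 and 240 CPM in the libraries labelled KO, against 320, 316 and 316 CPM in those labelled WT. The libraries labelled WT were almost equal, and KO 2 came nearest to them. Lama4 thus had a log2 fold change of -0.26 ± 0.11 (SE), which moved to -0.14 with library sizes as the only scaling. On the deposited TPM scale the labels overlapped, at 81.0, 96.6 and 74.2 TPM in the libraries labelled KO, against 96.9, 91.9 and 99.4 TPM in those labelled WT.

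Lama5, the alpha chain of many epithelial and vascular basement membranes (gene ID 16776, chromosome 2, 180176373 to 180225904), was the least abundant gene of the set. Its counts were 739, 500 and 895 under the KO label, against 750, 1017 and 907 under the WT label. These are 10.98, 7.17 and 12.0 CPM in the libraries labelled KO, against 12.2, 15.2 and 14.8 CPM in those labelled WT. KO 2 was lowest, and KO 3 lay just under WT 1 in CPM and, on the deposited TPM scale, just over it (1.97 TPM in KO 3, against 1.96 TPM in WT 1). A log2 fold change of -0.48 ± 0.20 (SE) with all libraries compares with -0.29 without KO 2.

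Lama2 encodes the alpha chain of muscle and nerve basement membranes, also made by fibroblasts (gene ID 16773, chromosome 10, 26981285 to 27617191). It had 61.5, 74.7 and 95.7 CPM in the libraries labelled KO, against 77.4, 69.7 and 62.1 CPM in those labelled WT. KO 3 was highest and KO 1 lowest, so both extremes fell in libraries labelled KO and the labels overlapped. The log2 fold change of 0.15 ± 0.17 (SE) was smaller than its error, and it was 0.27 with library sizes as the only scaling, 0.29 without KO 1 and -0.034 without KO 3.

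The beta chains Lamb1 and Lamb2 replace each other in the trimer, and they compared differently between labels. Lamb2 (gene ID 16779, chromosome 9, 108479847 to 108490530), the beta chain prominent in vessel walls, synapses and kidney, had 194, 170 and 162 CPM in the libraries labelled KO, against 223, 257 and 270 CPM in those labelled WT. The labels did not overlap, and the log2 fold change was -0.51 ± 0.12 (SE). Without KO 1, where edgeR called Lamb2, it was -0.59. Lamb1 (gene ID 16777, chromosome 12, 31265146 to 31329644), the widespread beta chain, had 196, 280 and 262 CPM in the libraries labelled KO, against 250, 223 and 213 CPM in those labelled WT. KO 1 was its lowest library and KO 2 and KO 3 its highest. The log2 fold change of Lamb1 was 0.10 ± 0.15 (SE), and it was 0.23 with library sizes as the only scaling, 0.24 without KO 1 and -0.0031 without KO 2.

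Lamc1 encodes the gamma chain found in most laminins (gene ID 226519, chromosome 1, 153218922 to 153332786). It had 280, 285 and 254 CPM in the libraries labelled KO, against 319, 385 and 324 CPM in those labelled WT. All libraries labelled KO were below all labelled WT, with WT 2 the highest, and the log2 fold change was -0.33 ± 0.12 (SE), or -0.21 with library sizes as the only scaling.

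The chains can be compared with each other per length, as shares of the summed deposited TPM of their class. Lama4 took 83.4%, 84.5% and 77.4% of alpha chain TPM in the libraries labelled KO, against 83.6%, 84.3% and 84.9% in those labelled WT. Only KO 3 stood apart among the 6, with Lama2 at 19.2% of alpha chain TPM there, against 10.4% to 12.6% in the libraries labelled WT. Lama5, Lama3 and Lama1 took at most 2.14%, 1.78% and 1.61% in any library. Without KO 3, the difference in the Lama4 share was -0.35 percentage points (KO minus WT), against -2.53 with all 6 libraries.

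Among beta chains, Lamb2 took 48.8%, 37.8% and 38.6% in the libraries labelled KO, against 46.7%, 51.7% and 54.3% in those labelled WT. KO 1 lay above WT 1, so the labels overlapped. The mean difference was -9.21 percentage points (KO minus WT) with all libraries and -12.7 without KO 1. The ratio of Lamb2 to Lamb1 TPM was 1.02, 0.62 and 0.64 in the libraries labelled KO, against 0.92, 1.18 and 1.30 in those labelled WT. Lamb3, a beta chain of epithelia, took at most 4.63% in any library.

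Among gamma chains, Lamc1 took 88.7%, 85.9% and 80.3% in the libraries labelled KO, against 91.7%, 95.5% and 93.8% in those labelled WT. The remainder was mostly Lamc3, a gamma chain that is not in the set, at 8.64%, 11.4% and 17.5% in the libraries labelled KO, against 6.13%, 2.79% and 4.64% in those labelled WT. No library labelled KO overlapped with one labelled WT in either share.

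The summed alpha chain TPM was 97.2, 114 and 95.9 in the libraries labelled KO, against 116, 109 and 117 in those labelled WT. Summed over each class, alpha to gamma chains stood at 1.27 ± 0.05 in the libraries labelled KO and 1.30 ± 0.12 in those labelled WT. Beta to gamma chains stood at 1.78 ± 0.07 in the libraries labelled KO and 1.82 ± 0.14 in those labelled WT (SD, n = 3 each). Both ratios differed between labels by less than the spread between libraries.

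**Figure D2:**
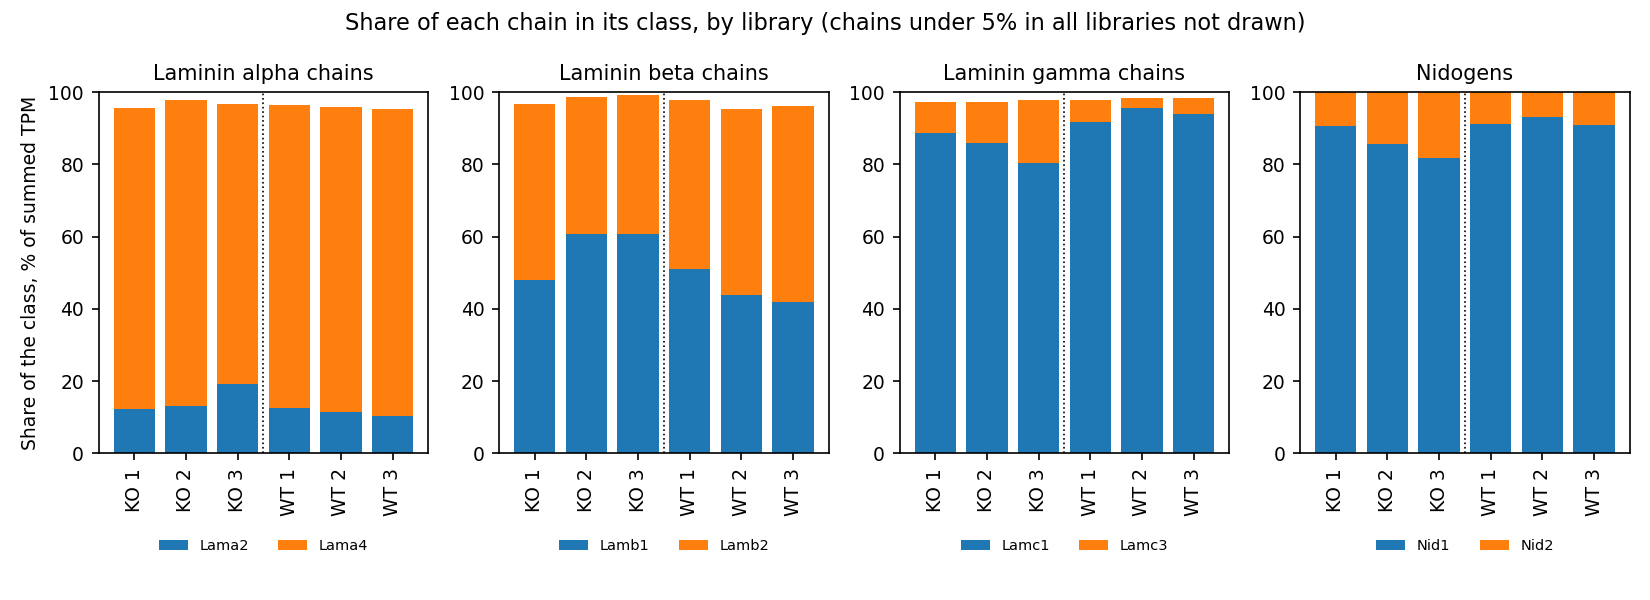
Share of each chain in the summed TPM of its class (y axis, percent) in each library, libraries labelled KO left of the dotted line and WT right of it. Chains under 5% in all 6 libraries are not drawn. Lama4 dominates the alpha chains in all 6 libraries, at 77.4% to 84.9%. The share of Lamc3 and of Nid2 is larger in KO 2 and KO 3 than in any library labelled WT.

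The stretch upstream of the start is shown for the 4 genes with the lowest log2 fold changes, whose labels did not overlap (Hspg2, Nid1, Hmcn2 and Lamb2), to let their promoters be compared. The sequences are from RefSeq in GRCm38.p6, run 5′ to 3′ and stop where the RefSeq gene begins. Capitals mark matches, on either strand, to any of 6 motifs: the GC box GGGCGG, the CCAAT box CCAAT, the TATA box TATAAA, the TEAD motif GGAATG, the AP-1 motif TGANTCA and the E-box CACGTG.
Hspg2, chr4:137468553-137468750, plus strand: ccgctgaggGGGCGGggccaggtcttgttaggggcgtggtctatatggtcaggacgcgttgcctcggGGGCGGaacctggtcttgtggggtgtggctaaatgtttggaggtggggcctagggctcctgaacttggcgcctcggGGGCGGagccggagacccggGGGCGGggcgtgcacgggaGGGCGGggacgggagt
Nid1, chr13:13437352-13437601, plus strand: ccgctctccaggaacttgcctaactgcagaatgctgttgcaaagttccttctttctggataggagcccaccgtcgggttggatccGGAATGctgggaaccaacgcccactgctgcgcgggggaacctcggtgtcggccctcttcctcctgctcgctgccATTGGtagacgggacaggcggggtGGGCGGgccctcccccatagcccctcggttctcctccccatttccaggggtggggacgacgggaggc
Hmcn2, chr2:31314082-31314254, plus strand: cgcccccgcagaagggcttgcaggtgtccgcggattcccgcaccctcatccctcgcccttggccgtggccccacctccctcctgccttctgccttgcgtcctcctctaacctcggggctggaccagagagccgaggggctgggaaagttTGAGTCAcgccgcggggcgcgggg
Lamb2, chr9:108479612-108479846, plus strand: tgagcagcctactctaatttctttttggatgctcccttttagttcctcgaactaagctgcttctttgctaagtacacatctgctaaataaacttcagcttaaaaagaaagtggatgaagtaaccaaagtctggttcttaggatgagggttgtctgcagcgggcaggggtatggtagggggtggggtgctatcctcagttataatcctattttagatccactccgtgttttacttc

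The Hspg2 stretch held 5 GC boxes, the Nid1 stretch 1 GC box, 1 CCAAT box and 1 TEAD motif, the Hmcn2 stretch 1 AP-1 motif and the Lamb2 stretch 0 of the 6 motifs. The table of promoters had a window for 7 of the 10 genes. Each window held 250 bases, and all but that of Nid1 ran into the RefSeq gene. The bases outside the gene were 1 for Lama2, 103 for Lamb1, 173 for Hmcn2, 198 for Hspg2, 205 for Lama5 and 235 for Lamb2. For Hmcn2 alone, the bases that follow the window were in no transcript of the gene in the GENCODE annotation. The start used for Hmcn2 is thus not backed by that annotation. Over the whole 250 bases, GC boxes were found in 4 of these 7 windows (Lama5, Lamb1, Nid1 and Hspg2) and in 32.7% of 32851 windows of all genes. The CCAAT box was in 2 of 7 windows (Lamb1 and Nid1) and in 33.8% of all, the TEAD motif in 1 and 12.6%, and the AP-1 motif in 1 and 6.75%. The TATA box and the E-box were in 0 of 7 and in 12.4% and 6.02% of all windows. Windows with matches were those of Lama5, Lamb1, Nid1, Hspg2 and Hmcn2, and those of Lama2 and Lamb2 had none. The windows of Lama2 and Lamb1 lay mostly inside the gene. Whether matches go with the values by label was not tested. These matches are letters only and say nothing of binding.

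Likeness of profiles over the libraries was measured as the root mean square (RMS) difference of log2 CPM after centring each gene on its mean of the 6 libraries, against 12911 other named genes with a mean of at least 1 CPM. The closest pair within the set was Lama4 and Lamc1, at an RMS of 0.11, where Lamc1 ranked 458 among the genes by closeness to Lama4. The RMS is not scaled to a gene's own variation, and its median over the 12911 genes was 0.24 for Lama4 and 0.81 for Hspg2. Ranks of the nearest member ran from 141 (Lamb2 for Hmcn2) and 146 (Nid1 for Hspg2) to 997 (Lamb1 for Nid2). The genes nearest to Nid1 were Dll4, a Notch ligand of endothelium (RMS 0.03), and Mmp15, a membrane-bound matrix metalloproteinase (0.07). Those nearest to Hspg2 were Cystm1 (0.09) and Ephb2, an ephrin receptor (0.10), and those nearest to Hmcn2 were Fam129b (0.04) and Map3k6 (0.05).

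Centring each gene on the mean of its own label removes the difference that was used to choose the genes. What remained in Hspg2 was 0.70, -0.35 and -0.35 log2 units in the libraries labelled KO and -0.40, 0.40 and 0.01 in those labelled WT. Nid1 left 0.29, 0.03 and -0.32 in the libraries labelled KO and -0.24, 0.39 and -0.15 in those labelled WT. Both were thus highest in KO 1 and WT 2 of their label and lowest in WT 1 among WT. Lama2 and Lamb1 had the opposite sign in KO 1, at -0.31 each, as did Nid2 at -0.30. Hmcn2 left no more than 0.14 in any library. Within labels the nearest member ranked between 540 (Nid1 for Hspg2) and 6647 (Lama4 for Hmcn2) among the same 12911 genes. Dll4 was among the 2 genes nearest to Nid1 (0.03), beside Pea15a (0.01), while Hspg2 had Pdzrn3 and Pkp2 (0.05 and 0.06). The RMS within labels cannot exceed that over all 6 libraries, so the closeness of Dll4 is not a separate finding.

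**Figure D3:**
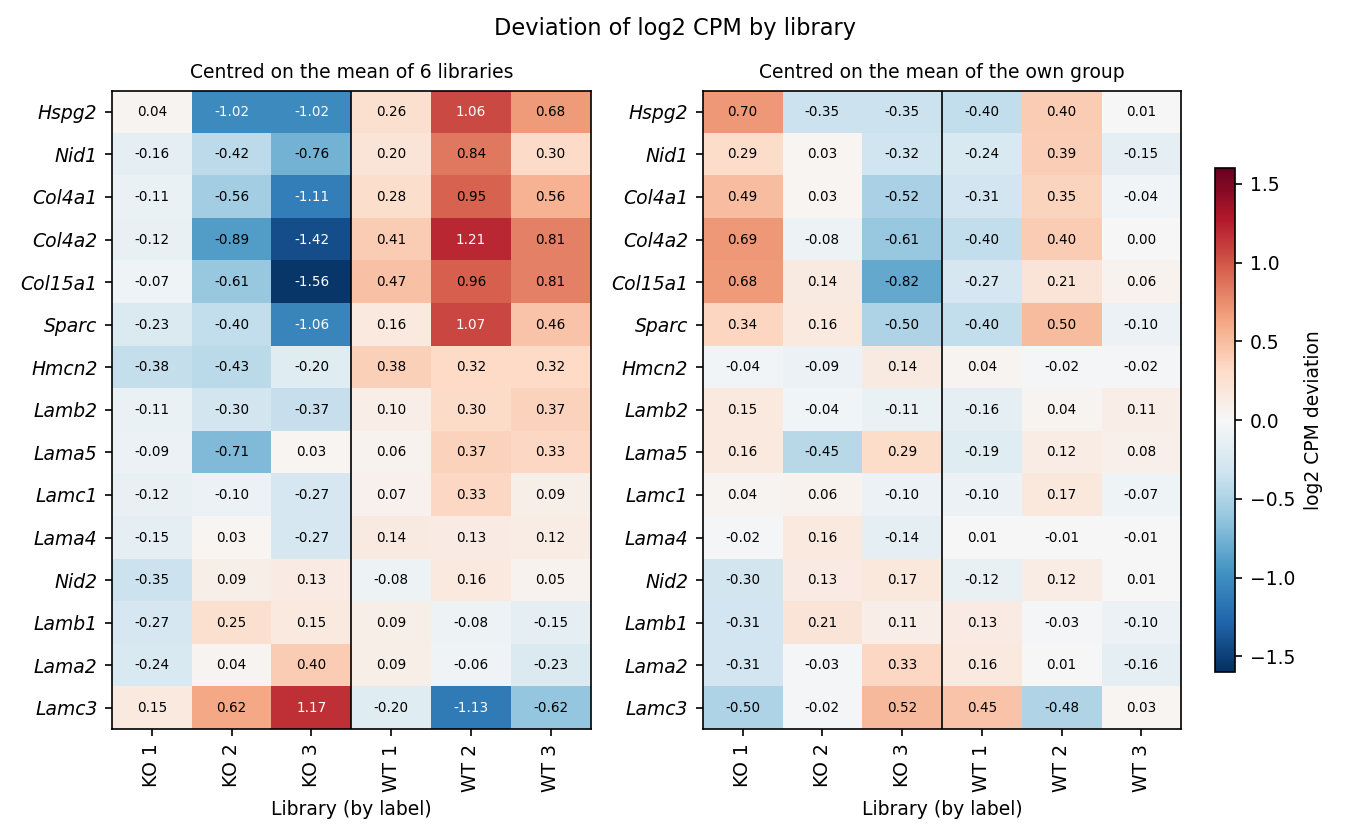
Deviation of log2 CPM in each library from the mean of all 6 libraries (left) and from the mean of the own label (right), for the 10 genes and for Col4a1, Col4a2, Col15a1, Sparc and Lamc3. Blue is below and red above the mean. In the left panel Hspg2, Nid1, the collagen genes and Sparc are highest in WT 2 and lowest or joint lowest in KO 3, while Lamc3 runs the other way.

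The rest of the basement membrane was taken from 6 lists of 65 genes that hold none of the 10, of which 64 were tested. These lists were drawn up with earlier results of these data known. Among the genes farthest from 0 with no overlap between labels were the 2 main collagen IV chains, collagen XV and Sparc, all lower in the libraries labelled KO, and Lamc3, higher there. None of them (0 of 64) passed edgeR's quasi-likelihood test over all genes, the lowest adjusted p being 0.120. At an unadjusted p under 0.05, 22 were lower and 4 higher in that test, against 9.71% and 9.66% of all genes. DESeq2 called 12 lower and 2 higher, against 3.86% and 2.61% of all genes, while limma voom called 0. Libraries labelled KO were all below those labelled WT in 20 genes and all above in 3, against 12.5% and 13.7% of all genes. Without KO 1, edgeR called 10 lower and 1 higher, against 3.49% and 2.08% of all genes. The median log2 fold change of the 64 was -0.18, against 0.02 over all genes tested.

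Collagen IV is the second network of the sheet, a mesh of triple helices to which nidogen and perlecan tie the laminins. Its main chains Col4a1 and Col4a2 had 750 ± 253 and 389 ± 177 CPM in the libraries labelled KO, against 1676 ± 392.3 and 1145 ± 315 CPM in those labelled WT (SD, n = 3 each). Their log2 fold changes were -1.16 ± 0.28 and -1.56 ± 0.35 (SE), with adjusted p of 0.147 and 0.145 in edgeR's test. Col15a1, a collagen at the outer face of basement membranes, stood at -1.38 ± 0.36, and Col4a6, a chain of epithelial collagen IV, at 0.65 ± 0.28. Of 8 collagen genes, 3 were below and 5 overlapped between labels (median -0.15). Without KO 1, the log2 fold changes of Col4a1, Col4a2 and Col15a1 were -1.43, -1.98 and -1.77, and all 3 were among the 11 genes of the lists that passed edgeR's test.

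Of the 5 laminin chains outside the set, Lamc3 had 44.8 ± 15.8 CPM in the libraries labelled KO and 18.03 ± 5.63 CPM in those labelled WT (SD, n = 3 each). It stood at 1.31 ± 0.32, with an adjusted p of 0.150 by edgeR, and without KO 1 it passed at 1.53. Lama1 (-1.04 ± 0.40) and Lamb3 (-1.17 ± 0.50) overlapped between labels, with Lamb3 at 5.58 ± 3.58 CPM in the libraries labelled KO and 12.5 ± 4.41 CPM in those labelled WT. Among 14 tested genes for other basement membrane proteins (median -0.05), Sparc, a collagen IV-binding glycoprotein, had 3524 ± 987 CPM in the libraries labelled KO and 7749 ± 2553 CPM in those labelled WT (-1.14 ± 0.30). Tinagl1 (-1.13 ± 0.33) and Smoc1 (-0.51 ± 0.20) also showed no overlap and passed edgeR's test without KO 1, at -1.61 and -0.79, while Fbln1, which encodes fibulin 1, stood at 0.90 ± 0.29 and overlapped. Frem1 had too few reads to be tested.

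Enzymes that fold and crosslink collagen had the lowest median of the 6 lists, -0.44 over 8 genes, with 4 genes lower in every library labelled KO. These were the prolyl hydroxylase gene P4ha2 (-0.56 ± 0.16), the lysyl hydroxylase genes Plod3 (-0.68 ± 0.20) and Plod1 (-0.55 ± 0.17), and Loxl2, a lysyl oxidase that crosslinks collagen IV (-0.33 ± 0.11). Their adjusted p in edgeR's test lay between 0.164 and 0.196. P4ha2 passed without KO 1, at -0.76, and DESeq2 called P4ha2, Plod1 and Plod3 with all libraries.

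Receptors for laminins and collagens had a median of -0.03 over 15 genes. Itga6, the laminin-binding integrin subunit of endothelium and epithelia, had 116 ± 15.1 CPM in the libraries labelled KO and 176 ± 12.3 CPM in those labelled WT (SD, n = 3 each; -0.60 ± 0.12, adjusted p 0.120 in edgeR's test). Itga7, a laminin-binding subunit of muscle (-0.79 ± 0.23), and Itga1, a collagen-binding subunit (-0.98 ± 0.28), were also lower in every library labelled KO, and Sdc3, a syndecan, was higher in every one (0.27 ± 0.08). Without KO 1, Itga6, Itga7 and Itga1 passed edgeR's test at -0.72, -1.13 and -1.34, and DESeq2 called these 3 with all libraries. In the dystroglycan complex and its glycosylation (14 genes, median -0.22), Dmd, which encodes dystrophin, stood at -0.51 ± 0.13, Sspn, which encodes sarcospan, at -0.41 ± 0.14, and the glycosyltransferase gene Pomgnt1 at -0.36 ± 0.11. Their adjusted p in edgeR's test lay between 0.155 and 0.191, and DESeq2 called Dmd.

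**Figure D4:**
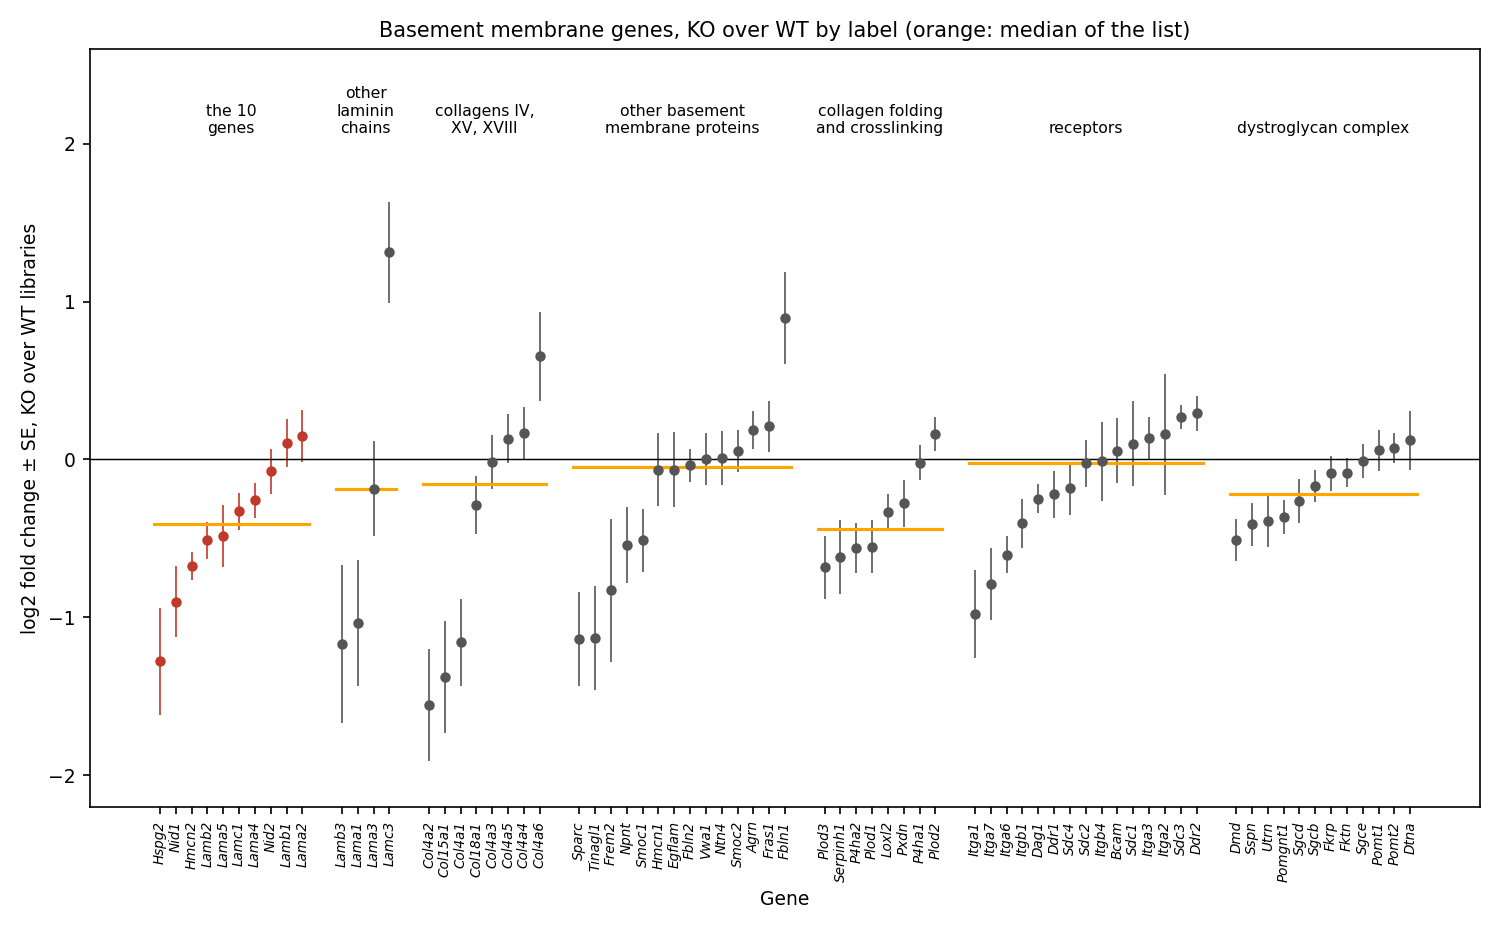
Log2 fold change ± SE of KO over WT libraries (y axis) for the 10 genes (red) and other basement membrane genes (grey), by list, with the median of each whole list in orange. Hspg2 lies lowest among the 10, at -1.28, near Col4a1 at -1.16 and Col15a1 at -1.38, and Lamc3 highest of all, at 1.31. The sign of Nid2, Lamb1 and Lama2 depended on the libraries used, and that of Nid2 also on the scaling.

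Markers of the cell types in the pad are given beside these values, and their part in them was not tested. None of the marker genes (0 in each list) passed edgeR's adjusted threshold, and the share of all genes with no overlap was 12.5% for lower and 13.7% for higher in the libraries labelled KO. Endothelial markers were lower in every library labelled KO for 7 of 12 genes, with a summed level of 252 to 271 CPM in the libraries labelled KO and 298 to 381 CPM in those labelled WT. Of their defining genes, Cdh5 stood at -0.71 ± 0.16, Tie1 at -0.83 ± 0.22 and Pecam1, which overlapped, at -0.39 ± 0.16. Esam (0.33 ± 0.16), Tek (0.15 ± 0.13) and Emcn (-0.02 ± 0.21) of the same list, picked after their values were seen, also overlapped. Smooth muscle and pericyte markers were lower in every library labelled KO for 3 of 10 genes, with sums of 631 to 1126 CPM in the libraries labelled KO and 894 to 2254 CPM in those labelled WT, and Rgs5 at -0.77 ± 0.14, Notch3 at -0.69 ± 0.15 and Pdgfrb at -0.06 ± 0.11. That sum includes Acta2, named after its values were seen, at 132 ± 147 CPM in the libraries labelled KO and 647 ± 660 CPM in those labelled WT (SD, n = 3 each). Adipocyte markers summed to 49790 to 55140 CPM in the libraries labelled KO and 49220 to 54930 CPM in those labelled WT, with 7 of 10 below 0 on the log2 scale and a median of -0.27. Pparg (0.61 ± 0.14) and Cfd (1.02 ± 0.32) were higher in every library labelled KO and Pnpla2 (-0.48 ± 0.14) was lower in every one, all 3 named after their values were seen. Cfd alone had 15671 ± 2594 CPM in the libraries labelled KO and 7707 ± 3417 CPM in those labelled WT (SD, n = 3 each), so the similar sums cover genes on both sides.

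Progenitor and fibroblast markers were higher in every library labelled KO for 2 of 10 genes, with Pdgfra at 0.54 ± 0.14, Dpp4 at 0.35 ± 0.12 and Pi16 at -0.25 ± 0.36, and sums of 4109 to 5835 CPM in the libraries labelled KO and 4224 to 4541 CPM in those labelled WT. Mesothelial markers (4 of 10 higher in every library labelled KO) summed to 906 to 1138 CPM in the libraries labelled KO and 569 to 928 CPM in those labelled WT, with Wt1 at 1.14 ± 0.29, Upk3b at 0.51 ± 0.21 and Msln at 0.06 ± 0.12. Macrophage markers (4 of 10) summed to 1873 to 2563 CPM in the libraries labelled KO and 1755 to 2175 CPM in those labelled WT. Lymphatic markers overlapped in all 5 genes, at 144 to 169 CPM in the libraries labelled KO and 135 to 158 CPM in those labelled WT. Schwann cell markers had 5 of 8 genes with enough reads (55.1 to 66.9 CPM in the libraries labelled KO, 51.4 to 56.9 CPM in those labelled WT), with Sox10 not among them. Skeletal muscle markers had 5 of 8 (15.7 to 156 CPM in the libraries labelled KO, 83.5 to 586 CPM in those labelled WT), with Acta1 at 57.6 ± 81.1 CPM under the KO label and 306 ± 255 CPM under the WT label (SD, n = 3 each) and Ckm and Myh4 not among them. Epididymal markers had 2 of 8 (1.52 to 1.92 CPM in the libraries labelled KO, 1.04 to 1.49 CPM in those labelled WT), and Defb2 and Lcn5 were at 0 in all 6 libraries.

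The genes share long and, in part, GC-rich transcripts. All 10 fell in the 2 longest of 10 equal bins of effective length, 5 in each, from 5555 bases for Nid2 to 17822 bases for Hmcn2. Over all genes in these bins the median log2 fold change was 0.02 and -0.01. Lama5, Lamb2, Hspg2 and Hmcn2, with 58.8% to 60.9% GC, fell in the highest of 10 bins of transcript GC content, where the median was -0.02, against 0.11 in the lowest bin. With a trend over length removed from each library the log2 fold changes of Hspg2, Nid1, Hmcn2 and Lamb2 were -1.25, -0.91, -0.65 and -0.53, and with a trend over GC content removed they were -1.29, -0.90, -0.65 and -0.49.

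**Figure D5:**
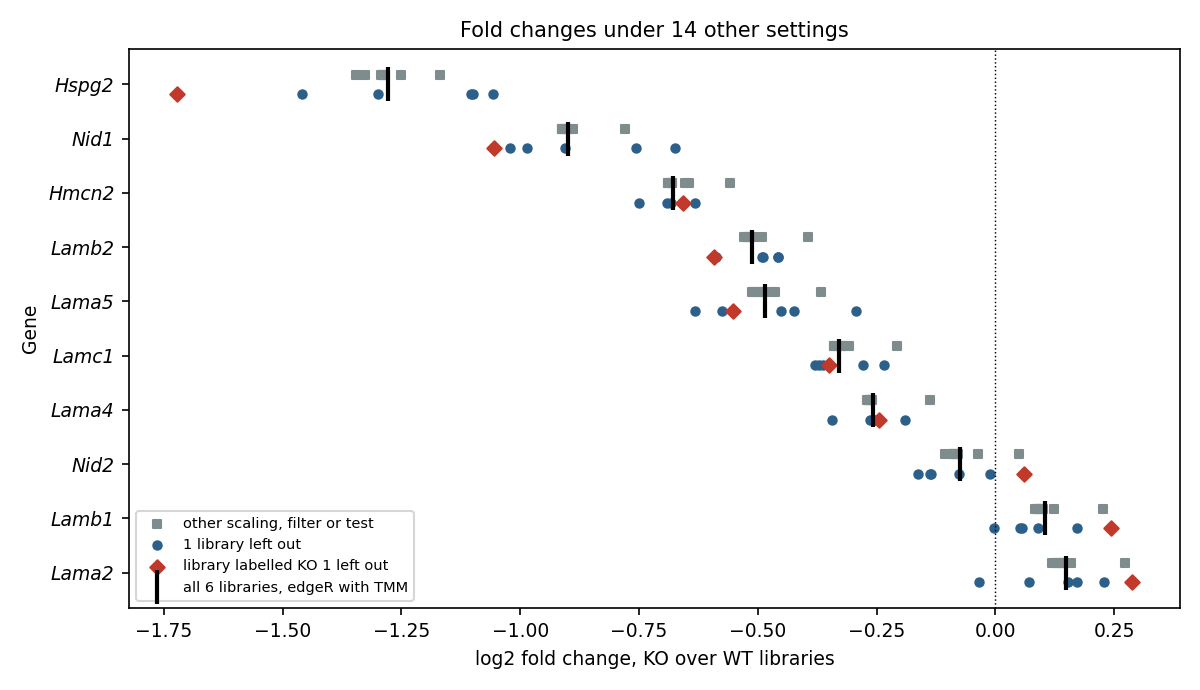
Log2 fold change of KO over WT libraries (x axis) for each of the 10 genes in the fit of all 6 libraries (black bar), with other scaling, filters or tests (grey squares), and with 1 library left out (blue circles, KO 1 in red diamonds). Hspg2, Nid1, Hmcn2, Lamb2, Lama5, Lamc1 and Lama4 stay below 0 in all 14 settings, and Nid2, Lamb1 and Lama2 cross 0 in at least 1.

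Reads shared with other genes could touch 3 of the 10. Lama2 and Nid1 share 631 and 143 exon bases with antisense genes (Gm48084 and Gm48682), and Nid2 shares 437 with the opposite-strand gene Rtraf, in the GENCODE annotation. The use of strand in counting is not stated in the labels, so reads from these stretches cannot be told apart.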

How the data were processed

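Total RNA was extracted with Trizol and sequenced after TruSeq Stranded mRNA LT preparation, per the labels' protocols. HISAT2 2.1.0, StringTie 2.1.3b and Bowtie2 2.3.4.1, beside FastQC 0.11.7, bcl2fastq 2.20.0 and the build mm10, are listed in the submitters' processing notes without role or order. The authors deposited 1 table with read counts (whole numbers, not normalized), FPKM and TPM per gene and library, per the file headers. Read counts entered every test. The deposited TPM gave levels per length, and the deposited FPKM with the counts gave effective lengths.

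Low genes were removed by filterByExpr (minimum count 10 and total 15), and the rest were scaled by TMM and fitted with edgeR 4.0.16 (R 4.3.3; robust glmQLFit, glmQLFTest, two-sided) on the label alone, with Benjamini-Hochberg adjustment over 17820 genes and a threshold of 0.05. Standard errors were derived from the fold change and the F statistic. Log2 CPM used a prior count of 2. Alternatives used DESeq2 1.42.0, limma 3.58.1 (voom), other scalings, no filter, a replicate block and each library left out. Scripts were tested on simulated data. Transcript GC content, from GENCODE, was known for 92.4% of genes tested. Counts of the 10 genes ran from 500 to 142245 per library, so the spread between libraries limits the precision, not the depth. No pair of libraries agreed within sampling noise (lowest chi-square 49.9 per degree of freedom). The smallest two-sided p of an exact permutation of 3 against 3 libraries is 0.1.

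The genes and lists were chosen with earlier results of these data known. The rule names the 10 genes, Pak4, up to 4 genes of each basement membrane list with the smallest p, the first 3 genes of each marker list and the 2 genes nearest in profile to a member. Some genes of these lists are counted but not reported here by name.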

Additional observations from a re-analysis of the deposited data

How the results depend on the processing

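The fold changes of the 10 genes were recomputed under 14 other settings each, 140 values in all, of which 134 kept their sign and moved by less than the spread between libraries. The sign turned in 4: Lama2 was at -0.034 without KO 3 (-0.034 to 0.29 with 1 library left out), Lamb1 at -0.0031 without KO 2 (-0.0031 to 0.24), and Nid2 at 0.050 with library sizes as the only scaling and 0.060 without KO 1 (-0.16 to 0.060). With library sizes alone the median over all genes was higher by 0.119 in log2 units, and Lama4 and Hmcn2, at -0.14 and -0.56, moved by more than the spread between libraries.

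The number of genes passing over all genes was 3 and depended on the test and on single libraries. It was 1152 with DESeq2 (465 higher, 687 lower) and 5 with limma voom, and with 1 library left out it ran from 1 to 1016, the highest without KO 1, against 5 without WT 1, 2 without KO 2 and 1 without KO 3, WT 2 or WT 3. Among the 64 other basement membrane genes, 0 passed with all libraries, 14 with DESeq2, and 0 to 11 with 1 library left out, the highest without KO 1. Of the 10 genes, DESeq2 called 4 and edgeR without KO 1 called 3. Of all genes, DESeq2 called 3.86% lower and 2.61% higher, and edgeR without KO 1 called 3.49% lower and 2.08% higher. The cause of these differences was not tested.

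The labels number the replicates without saying that a number pairs mice. Deviations of same-numbered libraries correlated at -0.17, -0.02 and 0.05 over genes, against -0.189 to 0.185 for libraries of different number. With 3 libraries per label these values cannot show whether a number pairs mice. With the replicate number as a block 1 gene passed, and 0 of the 10 did. The trend over GC content was chosen after seeing the data. Shares of chains in TPM moved by less than the spread between libraries, with Lamb2 between -12.7 and -7.25 percentage points, Nid1 between -7.97 and -3.63 and Lama4 between -3.89 and -0.35 with 1 library left out.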
